A study of Mus musculus with 20 samples.

Results

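The Slc25 genes encode the mitochondrial carriers, a family of transport proteins, and their transcripts were followed in mouse kidney. Members were all genes named Slc25a followed by a number with a mean of at least 0.5 CPM (gene counts scaled by library size) in the table used. Of 44 such genes in the LOY table, 41 met the rule, out of 26608 named genes of which 14978 were tested. Of 47 in the ABT-263 table, 43 met it, out of 30809 named and 16956 tested. All members passed the filter on low counts in their table. Slc25a2, Slc25a31 and Slc25a41 fell short in both tables and Slc25a54 in the ABT-263 table. The members nearest above the limit were Slc25a43 at 0.611 CPM in the LOY table and Slc25a18 at 0.661 CPM in the ABT-263 table. Slc25a2 was the nearest below it, at 0.221 and 0.185 CPM.

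The kidneys were those of aged mice given a bone marrow transplant, from which either a Control blood system or a LOY one grew, in which the blood-forming cells lack the Y chromosome. The LOY table held 6 Control kidneys (animals 3, 11, 12, 13, 16 and 17) and 6 LOY kidneys (animals 5, 8, 9, 10, 14 and 18), with no compound named in their labels. The ABT-263 table held 4 LOY kidneys given a control compound (animals 6, 8, 9 and 10) and 4 LOY kidneys given ABT263 (animals 15, 16, 17 and 18), so every animal in it carried the LOY blood system. ABT-263, or navitoclax, blocks BCL-2 family proteins and is used to kill senescent cells. The genotype names the transplanted blood system, not the kidney's own cells; strain, sex, age in months, dose and the way LOY was made were not stated. In such whole-kidney RNA, fewer cells of a type and less RNA per cell cannot be told apart.

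Nearly all mitochondrial carriers sit in the inner mitochondrial membrane and exchange metabolites between the matrix and the cytosol. They bring in ADP, phosphate, pyrimidine nucleotides, cofactors and acylcarnitines, and they carry out ATP, citrate and amino acids. The proximal tubule, which makes up much of the renal cortex, is rich in mitochondria and burns fatty acids to drive reabsorption, so it relies on these carriers for its energy supply. A few members lie elsewhere, such as Slc25a17 in peroxisomes and Slc25a46 in the outer mitochondrial membrane.

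Total gene counts per kidney were 13332563 to 19386408 in the LOY table and 14587809 to 20791633 in the ABT-263 table. The Slc25 genes together took 0.50% to 0.58% of them in the LOY table and 0.46% to 0.56% in the ABT-263 table. LOY animal 8 stood apart, holding the lowest value of 29.9% and the highest of 28.6% of all tested genes in its table. Control-compound animal 6 did so in the other table, with 24.2% lowest and 24.5% highest. The Y-linked gene Ddx3y measured 57.3 to 72.3 CPM in Control and 37.9 to 67.1 CPM in LOY kidneys, so the LOY label could not be checked by its absence in whole kidney. Nothing in the labels says how the kidneys were batched, and the 2 tables, whose gene sets differ, were tested apart.

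The carrier transcripts differed widely in level, and a few of them dominated. Levels are compared here per kilobase of annotated exons (mean CPM per kb over a table). Slc25a5, the adenine nucleotide translocase 2 that swaps cytosolic ADP for matrix ATP, stood highest at 588 CPM per kb in the LOY table and 495 CPM per kb in the ABT-263 table. Slc25a39, needed for the import of glutathione into mitochondria, followed at 339 and 184 CPM per kb. Slc25a10, the dicarboxylate carrier, reached 169 and 86.6 CPM per kb, and Slc25a4, the adenine nucleotide translocase 1, reached 117 and 104 CPM per kb.

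The phosphate carrier Slc25a3 stood at 79.6 and 128 CPM per kb. Slc25a11, which exchanges oxoglutarate for malate, stood at 88.5 and 60.9 CPM per kb, and the citrate carrier Slc25a1 at 75.1 and 52.1 CPM per kb. These 7 genes filled the first 7 places in both tables. Slc25a17 came next among the members of the LOY table at 45.1 CPM per kb. Slc25a51, the NAD carrier, took that place in the ABT-263 table at 47.9 CPM per kb. The LOY table lists it under its older symbol Mcart1, at 45.5 CPM per kb, so it was no member there. At the other end, the glutamate carrier Slc25a18 stood at 0.425 and 0.346 CPM per kb, while its paralog Slc25a22 stood at 5.89 and 5.78 CPM per kb. Slc25a5 has processed copies in the genome, so its reads may have been shared between loci in counting.

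**Figure D1:**
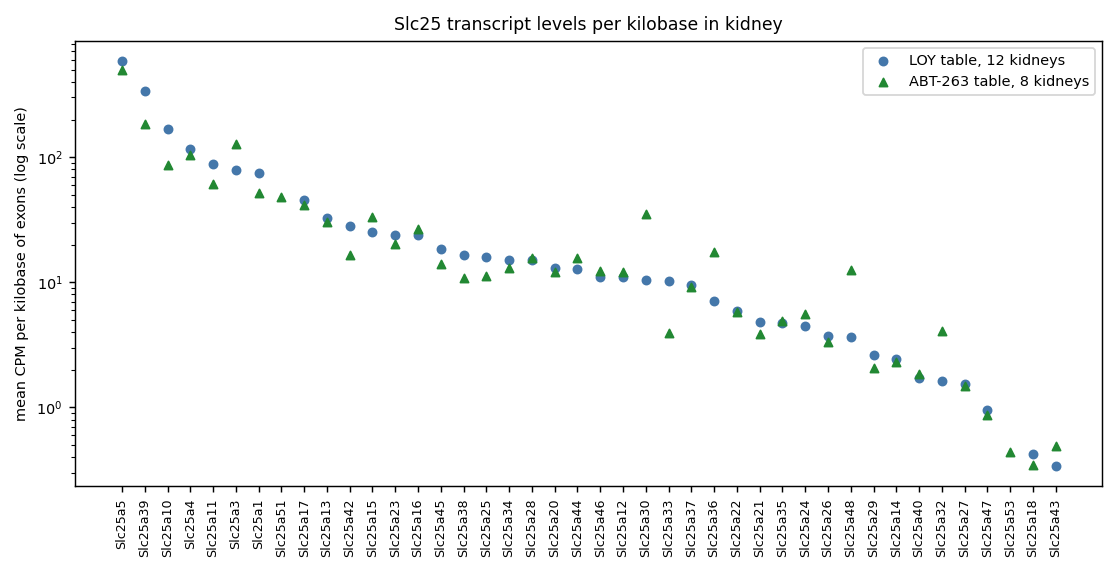
Mean CPM per kilobase of exons for the Slc25 members shown, on a log scale, ordered by the LOY table; circles are means of the 12 kidneys of the LOY table and triangles of the 8 kidneys of the ABT-263 table. Slc25a5 stands highest in both (588 and 495 CPM per kb), and the levels run down to 0.343 CPM per kb for Slc25a43 in the LOY table.

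Between LOY and Control kidneys no carrier passed the test. With edgeR's quasi-likelihood test and Benjamini-Hochberg adjustment over all genes, 0 of 41 members had an adjusted p under 0.05, beside 176 of 14978 genes (1.18%). At an unadjusted p under 0.05, 3 members were higher (7.32% of the members, beside 13.5% of all genes) and 9 were lower (22.0%, beside 9.33% of all genes). These counts leave out family members under other symbols. Of those, Mcart1 (Slc25a51) and Mcart6 (Slc25a53, mean 1.57 CPM) were lower, at -0.41 ± 0.15 and -0.81 ± 0.36 (SE; edgeR unadjusted p = 0.0151 and 0.0403). Ucp2 was higher, at 0.70 ± 0.20 (SE; edgeR unadjusted p = 0.0035). DESeq2 called 1 of 41 members, Slc25a25, beside 5.78% of all genes (866 of 14978), and voom with sample weights called 2, Slc25a23 and Slc25a24, beside 7.09% (1062). The groups overlapped for every member, so 0 were wholly higher and 0 wholly lower, beside 1.56% and 0.461% of all genes. Of the members 14 had a log2 fold change above 0 and 27 below, with a median of -0.06 beside 0.02 over all genes tested, and 20 of 41 lay within 0.25 of 0.

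**Figure D2:**
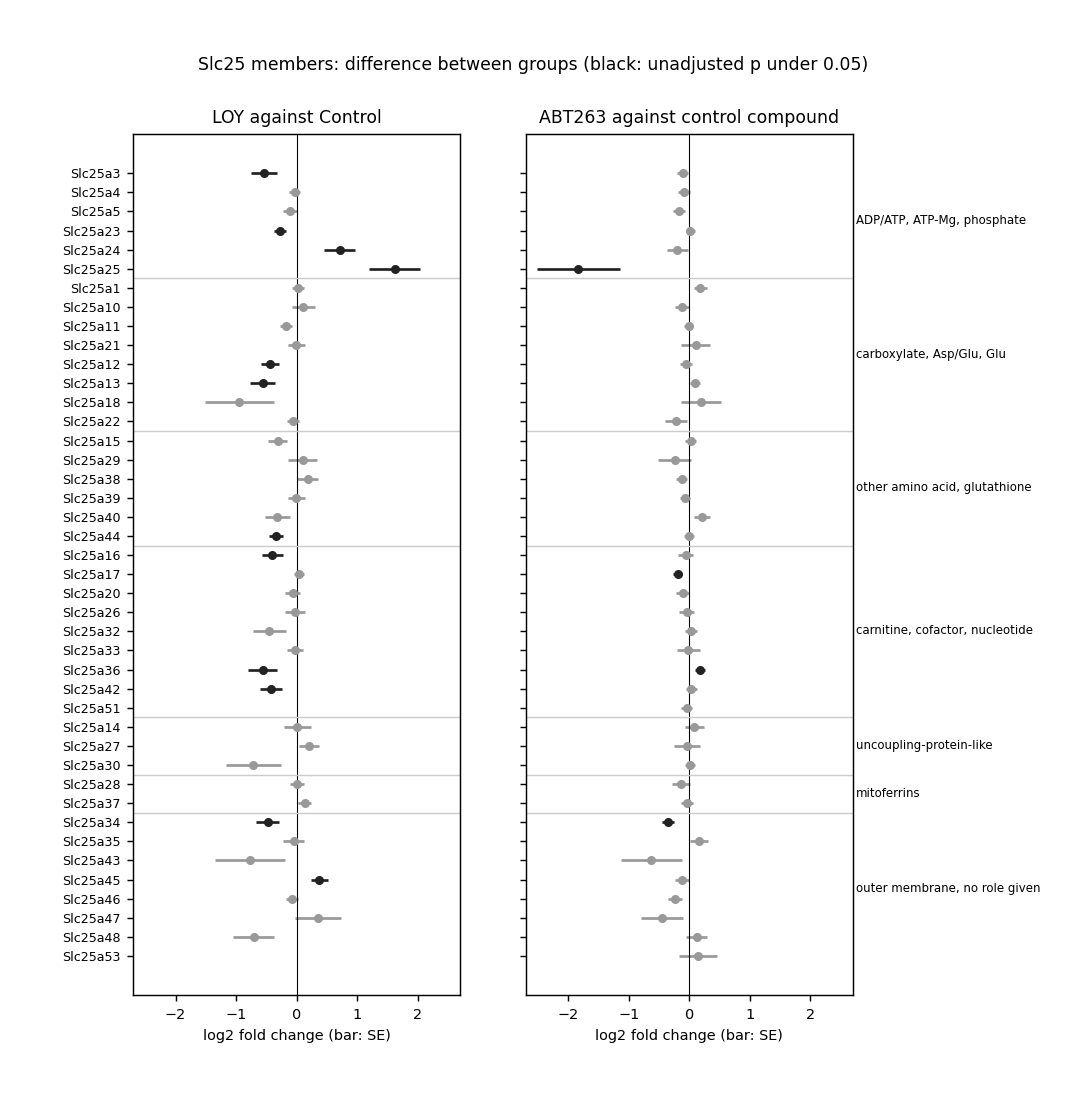
Log2 fold changes (points) with their standard errors (bars) for the Slc25 members shown, grouped by role, with LOY against Control on the left (12 kidneys) and ABT263 against control compound on the right (8 kidneys); black points have an unadjusted p under 0.05. Slc25a25 lies farthest from 0 on both sides, at 1.61 and -1.83, and most other members on the right lie within 0.25 of 0.

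Among the carriers of ATP, ADP and phosphate, the ATP-Mg/phosphate exchangers went different ways. These calcium-regulated carriers, Slc25a23, Slc25a24 and Slc25a25, set the total adenine nucleotide pool of the matrix. Slc25a25 (chromosome 2, 32414487 to 32451445, GRCm38, minus strand) measured 34.2 CPM at the lowest, 61.8 at the median and 96.2 at the highest in Control kidneys. In LOY kidneys the lowest value was 58.1 CPM, the median 148 and the highest 391. LOY animals 8, 10 and 9 were high, at 391, 309 and 202 CPM, while animals 5, 14 and 18 lay inside the Control range. The log2 fold change was 1.61 ± 0.42 (SE; edgeR adjusted p = 0.0721). It was 1.28 without LOY animal 8, 0.82 without LOY animals 8 and 10, and 0.46 among the animals numbered above 10 alone. Wherever it is used here, that last set holds only LOY animals 14 and 18, beside Control animals 11, 12, 13, 16 and 17.

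Slc25a25 has 3 annotated start sites, which gene counts cannot separate, and 4.8% of its exon bases overlap Naif1 on the opposite strand (whether counting used strand was not stated). The promoter windows of its outermost start and of its innermost start, 250 bases before to 50 bases after each, are shown because this gene had the largest differences in the family; their use was not measured. They are RefSeq sequences of GRCm38.p6, both on the minus strand of chromosome 2, at chr2:32451421-32451720 (outermost) and chr2:32424017-32424316 (innermost). Capitals mark the cAMP response element TGACGTCA, a palindrome that reads the same on both strands.
Slc25a25 outermost start: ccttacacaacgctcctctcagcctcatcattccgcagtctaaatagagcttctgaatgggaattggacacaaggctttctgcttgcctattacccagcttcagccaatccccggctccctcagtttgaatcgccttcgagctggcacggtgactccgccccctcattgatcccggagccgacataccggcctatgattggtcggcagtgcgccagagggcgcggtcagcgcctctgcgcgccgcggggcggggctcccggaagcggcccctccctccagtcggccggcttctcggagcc
Slc25a25 innermost start: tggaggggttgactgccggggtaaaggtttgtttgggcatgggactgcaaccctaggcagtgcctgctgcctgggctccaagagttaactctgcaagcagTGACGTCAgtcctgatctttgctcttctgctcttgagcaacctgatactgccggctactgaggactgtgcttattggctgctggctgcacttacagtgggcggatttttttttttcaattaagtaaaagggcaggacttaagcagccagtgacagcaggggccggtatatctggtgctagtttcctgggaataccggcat
The element begins 150 bases before the innermost start and is not in the outermost window. It occurs in 1.79% of all 32851 promoter windows of that length. Among 44 windows of members it was in 2 (4.55%), 1 of the 3 windows of Slc25a25 and that of Slc25a36, whose log2 fold changes had the opposite signs in both tables (given with that gene's values). It was searched for after the values of Slc25a25 were seen. The core of the NRF1 site, GCATGCGC, and the ERR site TCAAGGTCA were in neither window on either strand; 2.71% and 0.423% of all windows hold them. No conclusion on promoter motifs over the family is drawn from these shares. Only 34 of the 43 members (79.1%) had a sequence, 2 windows held the element, and it was picked after the values.

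Slc25a24 measured 6.82, 11.8 and 17.7 CPM (lowest, median and highest) in Control kidneys and 11.9, 18.9 and 29.1 CPM in LOY kidneys. LOY animal 10 was the highest, LOY animals 14 and 18 were also above every Control kidney, and the other 3 lay inside the Control range. The log2 fold change of Slc25a24 was 0.71 ± 0.26 (SE; edgeR adjusted p = 0.156), and it was 0.98 among the animals numbered above 10 alone. Slc25a23 measured 109, 144 and 150 CPM in Control kidneys and 101, 118 and 128 CPM in LOY kidneys. Control animal 3, at 109 CPM, lay among the LOY kidneys, and the other 5 Control kidneys lay above all 6 LOY kidneys. The log2 fold change of Slc25a23 was -0.27 ± 0.10 (SE; edgeR adjusted p = 0.153). Within a kidney, the log2 ratio of Slc25a23 to Slc25a25 had a mean of 1.24 (SD 0.50) in the 6 Control kidneys and of -0.39 (range -1.85 to 1.01) in the 6 LOY kidneys, and the groups overlapped.

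The phosphate carrier Slc25a3 (chromosome 10, 91116574 to 91124059), which supplies phosphate for ATP synthesis, measured 397, 540 and 618 CPM (lowest, median and highest) in Control kidneys. In LOY kidneys it measured 162, 384 and 483 CPM. LOY animals 8 and 10 were lowest, at 162 and 275 CPM, and animals 5, 14 and 18 lay inside the Control range. For Slc25a3 the log2 fold change was -0.54 ± 0.22 (SE; edgeR adjusted p = 0.182). The translocases had smaller fold changes. Slc25a5 averaged 1003 ± 79.8 CPM over the 6 Control kidneys and 931 ± 107 CPM over the 6 LOY kidneys (SD; log2 fold change -0.11 ± 0.11 SE). Slc25a4 averaged 279 ± 16.5 and 272 ± 23.6 CPM (-0.04 ± 0.09). The log2 ratio of Slc25a4 to Slc25a5 within a kidney was -1.84 ± 0.06 in Control and -1.77 ± 0.20 in LOY kidneys.

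**Figure D3:**
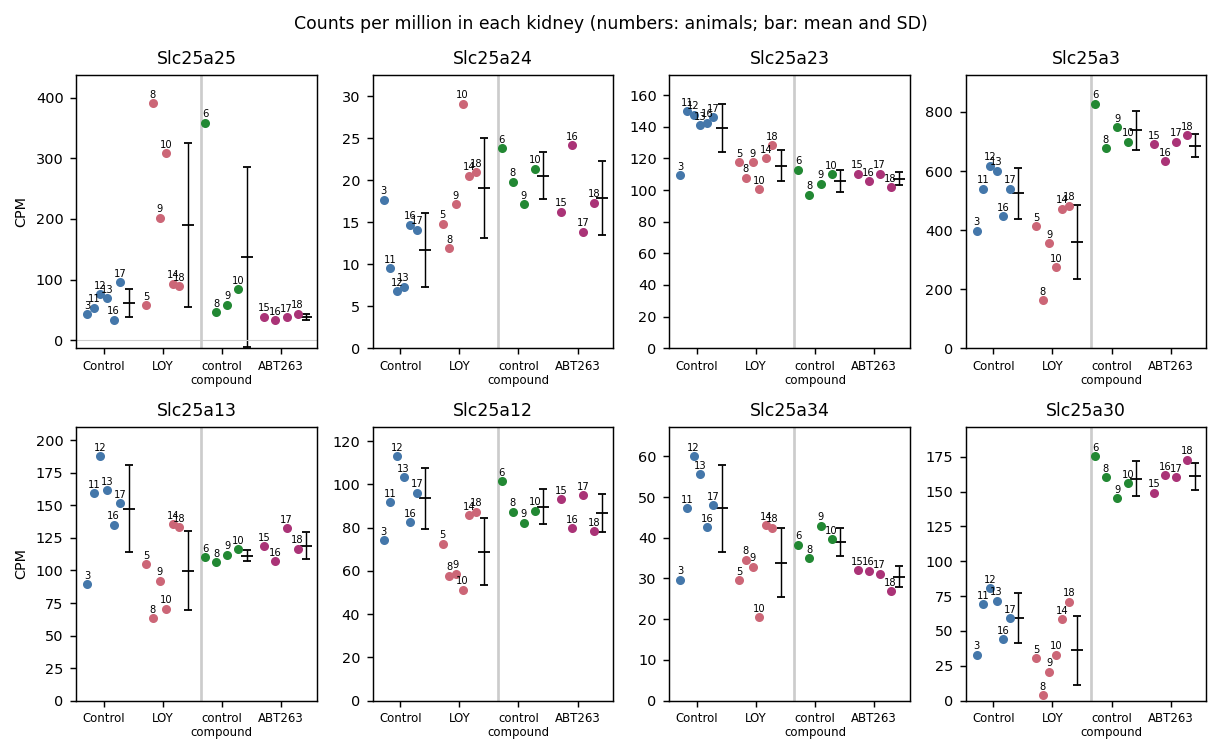
CPM of 8 Slc25 members in each kidney, with animal numbers beside the points and the mean and SD of each group in black; the grey line divides the LOY table (left) from the ABT-263 table (right), which were made and scaled apart. Slc25a25 is high in LOY animals 8, 9 and 10 (391, 202 and 309 CPM) and in control-compound animal 6 (359 CPM), and Slc25a13, Slc25a12 and Slc25a3 are low in LOY animals 8 and 10.

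The aspartate/glutamate carriers Slc25a12 (aralar) and Slc25a13 (citrin) export aspartate in the malate-aspartate shuttle, which moves reducing equivalents from cytosolic NADH into mitochondria. Slc25a13 (chromosome 6, 6041218 to 6217173) measured 89.6, 156 and 188 CPM (lowest, median and highest) in Control kidneys and 63.1, 98.7 and 136 CPM in LOY kidneys. LOY animals 8 and 10 lay below the Control range, at 63.1 and 70.7 CPM, and the other 4 lay inside it. This gave a log2 fold change of -0.56 ± 0.20 (SE; edgeR adjusted p = 0.156). Slc25a12 (chromosome 2, 71271063 to 71367749) measured 74.2, 94.0 and 113 CPM in Control kidneys and 51.2, 65.7 and 87.4 CPM in LOY kidneys. LOY animals 14 and 18 lay inside the Control range and the other 4 below it. Its log2 fold change was -0.44 ± 0.15 (SE; edgeR adjusted p = 0.137). Among the animals numbered above 10 alone these values were -0.25 for Slc25a13 and -0.17 for Slc25a12, and Slc25a3 stood at -0.20.

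The balance of the pair overlapped between the groups, with a log2 ratio of Slc25a12 to Slc25a13 of -0.63 ± 0.19 (SD) in the 6 Control kidneys and -0.50 ± 0.20 in the 6 LOY kidneys. The shuttle's other carrier, Slc25a11, averaged 199 ± 19.1 CPM in Control and 177 ± 15.9 CPM in LOY kidneys (log2 fold change -0.17 ± 0.10 SE). Of the shuttle's enzymes, Got1, Got2, Mdh1 and Mdh2, 0 of 4 passed the test, with a median log2 fold change of -0.10. The dicarboxylate carrier Slc25a10 averaged 563 ± 52.3 CPM in Control and 607 ± 226 CPM in LOY kidneys (0.11 ± 0.18 SE). LOY animal 8 held 1070 CPM of it and the other LOY kidneys 477 to 547 CPM; without animal 8 its log2 fold change was -0.13. Slc25a1 averaged 161 ± 12.1 and 164 ± 21.3 CPM.

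Among the carriers of carnitine, cofactors and nucleotides none passed. Of 9 members, 7 had a log2 fold change below 0, beside 47.7% of all genes, and the median was -0.07. At an unadjusted p under 0.05, 3 were lower, beside 9.33% of all genes. Slc25a42, the coenzyme A carrier, averaged 192 ± 43.0 CPM in the 6 Control kidneys and 144 ± 34.2 CPM in the 6 LOY kidneys (SD; log2 fold change -0.42 ± 0.18 SE). Slc25a16, linked to coenzyme A supply, stood at -0.40 ± 0.17, and the pyrimidine nucleotide carrier Slc25a36 at -0.56 ± 0.24. With animal number above 10 as a term beside group, Slc25a42 stood at -0.11, Slc25a16 at -0.08 and Slc25a36 at -0.35. Among the animals numbered above 10 alone they stood at -0.20, -0.22 and -0.31. Slc25a36 measured 18.8 CPM in LOY animal 8, and the other LOY kidneys measured at least 50.4 CPM. Slc25a20, which brings acylcarnitines in for fatty acid oxidation, averaged 64.4 ± 4.33 and 61.5 ± 12.3 CPM (-0.07 ± 0.12). Its partners of the carnitine shuttle, 4 tested enzymes, had a median log2 fold change of -0.22 with 0 past the threshold; the entry enzyme Cpt1a stood at -0.65 ± 0.24 (SE; edgeR adjusted p = 0.164). Slc25a51 stood in this table as Mcart1, with 244 to 324 CPM in Control and 153 to 269 CPM in LOY kidneys (-0.41 ± 0.15 SE; edgeR adjusted p = 0.156).

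Among the other amino acid and glutathione carriers, 4 of 6 had log2 fold changes below 0, and the median was -0.16. Slc25a44, a carrier of branched-chain amino acids, averaged 50.8 ± 4.29 CPM in the 6 Control kidneys and 40.1 ± 7.44 CPM in the 6 LOY kidneys (SD; -0.34 ± 0.12 SE). The ornithine carrier Slc25a15, part of the urea cycle, averaged 157 ± 17.0 and 126 ± 32.6 CPM (-0.32 ± 0.16). The abundant Slc25a39 averaged 937 ± 48.6 and 934 ± 181 CPM (-0.01 ± 0.13), with LOY animal 10 lowest at 671 CPM and LOY animal 8 highest at 1140 CPM. The mitoferrins, which import iron for haem and iron-sulphur clusters, stood at 0.00 ± 0.11 for Slc25a28 and 0.13 ± 0.11 for Slc25a37.

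Slc25a30, known as kidney mitochondrial carrier 1, had a wide spread. It measured 32.9, 64.1 and 80.5 CPM (lowest, median and highest) in Control kidneys and 3.70, 31.7 and 71.0 CPM in LOY kidneys. LOY animal 8 held the lowest value, and animals 10, 14 and 18 lay inside the Control range. Its log2 fold change was -0.72 ± 0.45 (SE; edgeR adjusted p = 0.331). Among the animals numbered above 10 alone, where LOY animals 14 and 18 are left, it was -0.0031. Slc25a45, whose role is not given here, was the remaining member that was higher at an unadjusted p under 0.05, at 44.1 ± 6.00 CPM in Control and 57.2 ± 11.6 CPM in LOY kidneys (0.37 ± 0.14 SE). Slc25a34 was lower, at 47.2 ± 10.6 and 33.8 ± 8.46 CPM (-0.48 ± 0.19; edgeR adjusted p = 0.170).

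LOY animals 8 and 10 held the low values of many members, animal 8 at close to its share over all genes. All 9 members that were lower at an unadjusted p under 0.05 had their lowest LOY value in animal 8 or 10 and their lowest Control value in animal 3. Among all 1397 genes lower at that level, 87.3% had their lowest LOY value in animal 8 or 10 and 73.6% their lowest Control value in animal 3. Over the whole table, LOY animal 10 held the lowest value of 13 of 41 members (31.7%, beside 13.8% of all genes) and LOY animal 8 of another 13 (31.7%, beside 29.9%). LOY animal 8 also held the highest value of 14 members (34.1%, beside 28.6% of all genes). Control animal 3 was the only Control kidney numbered 10 or below, where 4 of the 6 LOY animals fell. With animal number above 10 as a term beside group, 1 of 41 members was higher at an unadjusted p under 0.05, beside 5.89% of all genes, and 0 were lower, beside 2.03%. Under that fit the 9 lower members all stayed below 0 but nearer to it. Their median log2 fold change was -0.20 in place of -0.44, with a range of -0.35 to -0.08. Among the animals numbered above 10 alone their median was -0.22. These 9 were picked by their p in the fit without that term, so values nearer to 0 can follow from the choice alone. No such change is given here for the 1397 genes picked the same way, so the part of animal number was not tested. In the set of animals numbered above 10 alone, 1 of 41 members was higher at an unadjusted p under 0.05, beside 8.82% of all genes. In the same set 6 were lower, beside 6.82%. Over all 41 members the median with that term was -0.08.

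**Figure D4:**
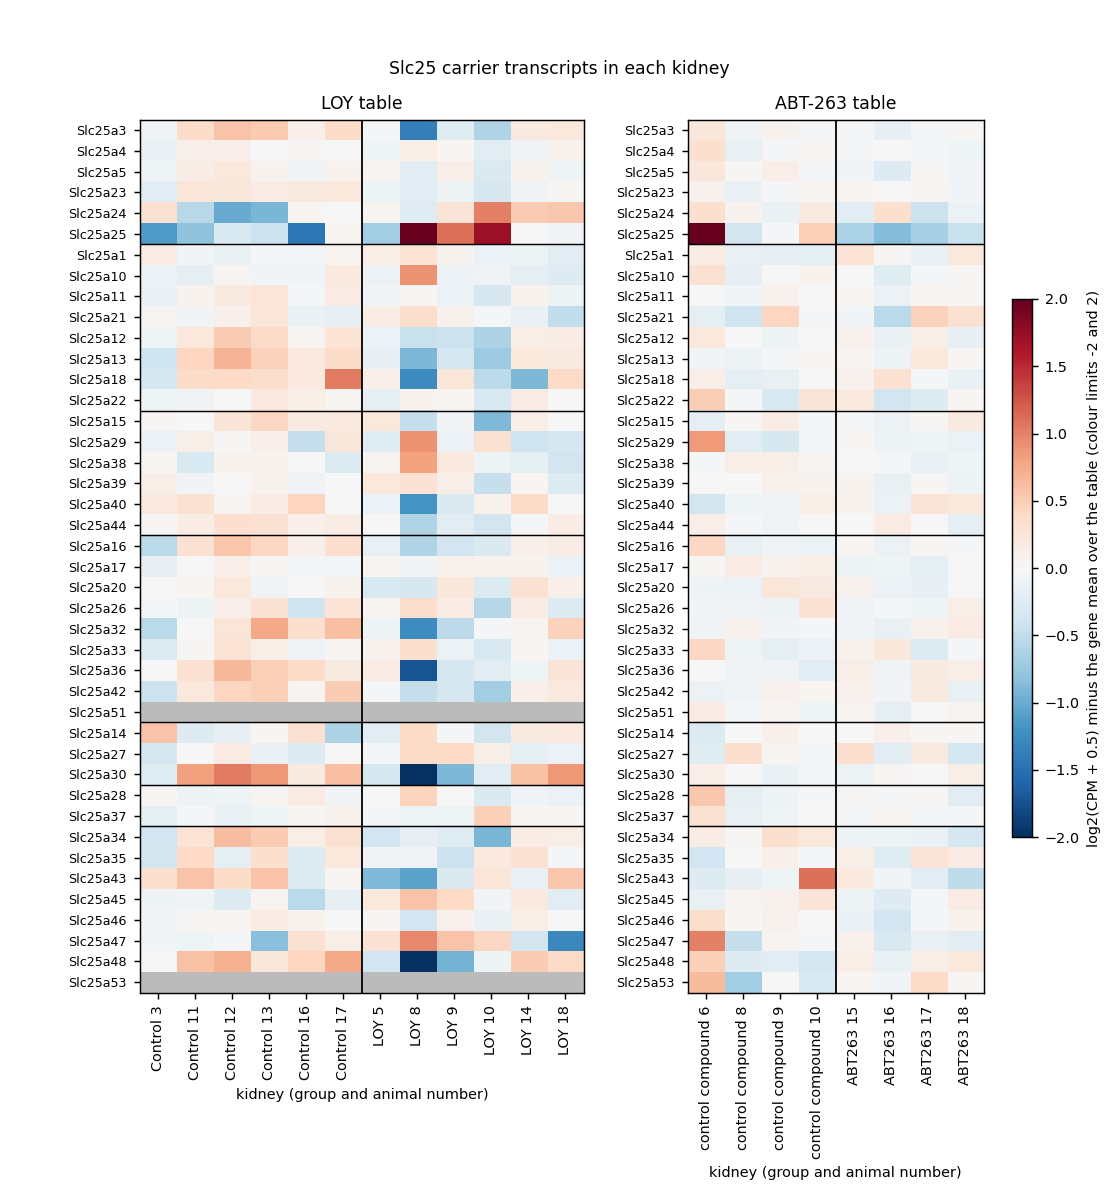
Log2(CPM + 0.5) of the Slc25 members shown, in each kidney, minus that gene's mean over its table, from blue (lower) to red (higher), with colours limited at -2 and 2; rows are grouped by role, the vertical line divides the groups, and grey marks genes that are no member in the LOY table. LOY animal 8 holds both strong blue and strong red cells, LOY animal 10 is mainly blue, and Slc25a25 is red in LOY animals 8, 9 and 10 and in control-compound animal 6.

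**Figure D5:**
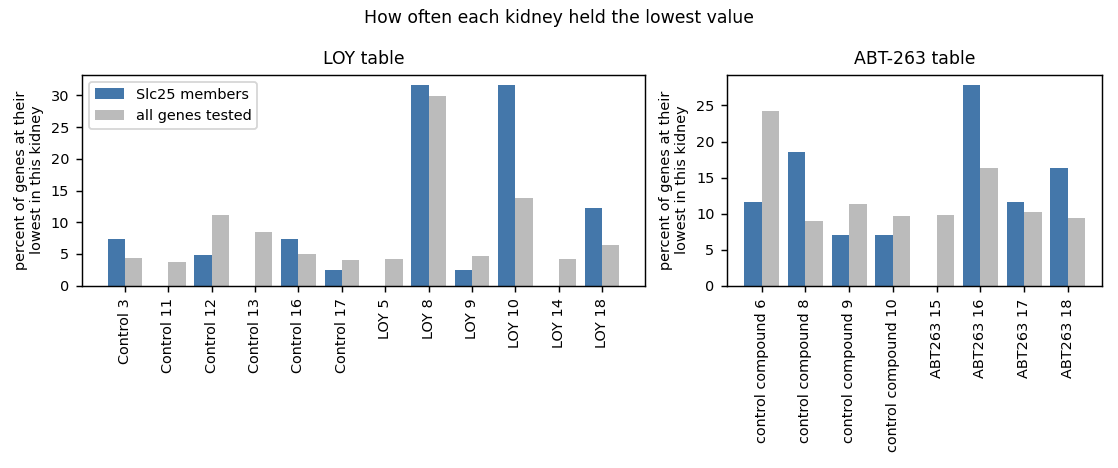
Percent of genes whose lowest value in the table lies in each kidney, for Slc25 members (blue) and for all genes tested (grey), with the LOY table on the left and the ABT-263 table on the right. LOY animals 8 and 10 each hold the lowest value of 31.7% of the members, beside 29.9% and 13.8% of all genes. In the ABT-263 table ABT263 animal 16 holds that of 27.9%, beside 16.3% of all genes.

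Lists of other transcripts were read in the same kidneys. Nuclear genes of mitochondrial content (such as the citrate synthase gene Cs and the ATP synthase gene Atp5a1) had a median log2 fold change of -0.25, with 11 of 12 below 0 and 0 past the threshold. Their summed level was 7360 to 9060 CPM in Control kidneys. It was lowest in LOY animals 10 and 8, at 5320 and 6530 CPM, and 7200 to 7770 CPM in the other 4 LOY kidneys. Proximal tubule markers had a median of -0.50, with 13 of 15 below 0 and 0 past the threshold. Their sum was 42500 to 46400 CPM in Control kidneys. LOY animals 10 and 18 lay below that range, at 28900 and 31800 CPM, and animals 9 and 14 inside it, at 44600 and 45000 CPM. LOY animals 5 and 8 lay above it, at 51900 and 68300 CPM. Kap, a marker in that list, was the top gene in both, at 2.85% and 4.68% of their counts. It was also the top gene in Control animal 3 and LOY animal 14, at 2.49% and 2.39%. The sums in all these kidneys rest mainly on Kap and do not stand for the other markers. Thick ascending limb markers had a median log2 fold change of -0.37 (4 of 5 below 0). Distal tubule and collecting duct markers had -0.37 (6 of 8 below 0), endothelial markers -0.11 (4 of 5 below 0) and podocyte markers 0.23 (4 of 5 above 0). These lists had 0 past the threshold.

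Of 10 tubular injury markers, 10 had a log2 fold change above 0 and 7 passed the threshold, beside 1.18% of all genes tested. Their sums were 1930 to 3820 CPM in Control kidneys and 3760 to 9090 CPM in LOY kidneys, highest in animals 10 and 18. Of 9 macrophage markers, 9 were above 0 and 6 passed. Their sums were 491 to 882 CPM in Control and 989 to 1480 CPM in LOY kidneys, so all 6 LOY kidneys lay above all Control kidneys. Of 7 T cell markers, 7 were above 0 (median log2 fold change 1.40) and 3 passed. Their sums were 9.92 to 14.4 CPM in Control and 21.5 to 32.7 CPM in LOY kidneys, highest in animals 14 and 8. These calls, chosen for repetition after seeing the data, were lost in part or in whole under some other fits and not under others. With animal number above 10 as a term, 0 injury, 1 macrophage and 0 T cell markers passed, and without Control animal 16 or 17 none of the 3 lists had a call. Without Control animal 11, 12 or 13 the counts were 0, 2 and 0, without LOY animal 10 they were 0, 1 and 0, and without LOY animals 5, 9 or 14 no T cell marker passed. Without LOY animals 8 and 10 together they were 3, 3 and 0, and with no filter on low counts 4, 6 and 2. Among the animals numbered above 10 alone (LOY animals 14 and 18) they were 8, 8 and 4. With DESeq2 they were 9, 8 and 4, with voom 8, 8 and 5, and without Control animal 3 they were 8, 8 and 4. The part of these cell types in the carriers' values was not tested.

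Further genes around the family gave no calls with edgeR. Import factors, which act along the route of carriers into the inner membrane, had a median log2 fold change of 0.25. Of these, 8 of 11 were above 0, 3 below and 0 past the threshold. Within that list Tomm20, a receptor of the outer membrane, stood at -0.33 ± 0.12 (SE) and the small chaperone Timm8a1 at 0.47 ± 0.18. Other transport proteins of mitochondrial membranes had a median of -0.14, with 0 of 14 past the threshold. The uncoupling protein Ucp2, a family member under another symbol, measured 109, 160 and 199 CPM (lowest, median and highest) in Control kidneys and 173, 215 and 391 CPM in LOY kidneys. LOY animals 8 and 10 were highest, at 391 and 320 CPM, and animal 5 lay inside the Control range. Ucp2 thus had a log2 fold change of 0.70 ± 0.20 (SE; edgeR adjusted p = 0.0975).

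ABT-263 was compared with the control compound in LOY mice, and no carrier passed the test. With edgeR 0 of 43 members passed, beside 0 of 16956 genes (0%), and DESeq2 and voom also called 0 members, beside 0.259% and 0.0649% of all genes. At an unadjusted p under 0.05, 1 member was higher (2.33% of the members, beside 2.95% of all genes) and 3 were lower (6.98%, beside 2.96%). The groups did not overlap for 3 members, all lower with ABT-263, beside 2.25% of all genes wholly lower; 0 members were wholly higher, beside 2.04%. The log2 fold changes ranged from -1.83 to 0.21, and 39 of 43 lay within 0.25 of 0. Their median was -0.04, beside -0.00 over all genes tested. Animal numbers and treatment cannot be told apart here, since the control compound went to animals 6 to 10 and ABT-263 to animals 15 to 18.

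Slc25a25 measured 359, 46.8, 59.1 and 84.3 CPM in control-compound animals 6, 8, 9 and 10. With ABT-263 it measured 38.8, 33.0, 38.1 and 44.2 CPM in animals 15, 16, 17 and 18. All 4 ABT263 kidneys lay below all 4 control-compound kidneys, and animal 6 was far above the rest. Its log2 fold change was -1.83 ± 0.69 (SE; edgeR adjusted p = 0.827). Without control-compound animal 6 it was -0.72, with an edgeR adjusted p of 0.259, the smallest of the alternative fits. The log2 ratio of Slc25a23 to Slc25a25 was 0.14 ± 1.24 with the control compound and 1.47 ± 0.20 with ABT-263 (SD, n = 4 each), without overlap. This ratio holds Slc25a25, itself wholly lower, and all other pairs of carriers compared in these kidneys overlapped between the groups. Slc25a24, a paralog of Slc25a25, averaged 20.6 ± 2.79 and 17.9 ± 4.41 CPM (log2 fold change -0.20 ± 0.17 SE), and Slc25a23 averaged 106 ± 6.99 and 107 ± 4.13 CPM (0.01 ± 0.07).

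Slc25a34, whose role is not given here, had the smallest p of the family. It measured 38.3, 34.9, 42.9 and 39.7 CPM in control-compound animals 6, 8, 9 and 10 and 32.1, 31.8, 31.2 and 26.8 CPM in ABT263 animals 15, 16, 17 and 18. The groups did not overlap, with the lowest control-compound kidney at 34.9 CPM and the highest ABT263 kidney at 32.1 CPM. Its log2 fold change was -0.35 ± 0.10 (SE; edgeR adjusted p = 0.657). The peroxisomal carrier Slc25a17 measured 120, 131, 123 and 128 CPM with the control compound and 109, 111, 103 and 116 CPM with ABT-263. Here too the groups did not overlap (-0.19 ± 0.07 SE; edgeR adjusted p = 0.760). Slc25a36, the single member that was higher at an unadjusted p under 0.05, measured 167, 160, 158 and 143 CPM and then 182, 159, 189 and 184 CPM, with ABT263 animal 16 inside the control-compound range (0.18 ± 0.08; edgeR adjusted p = 0.827).

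The abundant carriers overlapped between these groups. Slc25a5 averaged 862 ± 68.6 CPM with the control compound and 766 ± 63.7 CPM with ABT-263 (SD, n = 4 each; log2 fold change -0.17 ± 0.10 SE). Slc25a4 averaged 253 ± 36.7 and 238 ± 5.63 CPM (-0.09 ± 0.10), Slc25a3 738 ± 66.6 and 686 ± 38.1 CPM (-0.11 ± 0.09), and Slc25a10 312 ± 43.1 and 287 ± 24.2 CPM (-0.12 ± 0.11). Slc25a39 averaged 521 ± 16.5 and 495 ± 35.9 CPM (-0.07 ± 0.08). The aspartate/glutamate carriers averaged 89.8 ± 8.19 and 86.6 ± 8.79 CPM for Slc25a12 and 111 ± 4.19 and 119 ± 10.4 CPM for Slc25a13. Slc25a11 stood at -0.01 ± 0.07 and Slc25a20 at -0.11 ± 0.10.

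Slc25a1 averaged 106 ± 12.5 CPM with the control compound and 120 ± 15.2 CPM with ABT-263 (SD, n = 4 each; 0.18 ± 0.11 SE). Slc25a30 averaged 159 ± 12.5 and 161 ± 9.72 CPM (0.02 ± 0.08). The mitoferrins stood at -0.14 ± 0.15 for Slc25a28 and -0.04 ± 0.10 for Slc25a37. The NAD carrier Slc25a51 averaged 268 ± 20.6 and 260 ± 18.2 CPM (-0.04 ± 0.09). Slc25a46, the outer-membrane member that takes part in mitochondrial shape, averaged 72.4 ± 8.27 and 61.5 ± 7.92 CPM (-0.24 ± 0.11; edgeR adjusted p = 0.827).

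Control-compound animal 6 held the highest value of 19 of 43 members (44.2%, beside 24.5% of all genes) and ABT263 animal 16 the lowest of 12 (27.9%, beside 16.3%). Without animal 6 the median over members was 0.01. Proximal tubule markers summed to 21800 CPM in animal 6 and 19100 CPM in animal 16, and to 27200 to 30700 CPM in the other 6 kidneys. The sum of tubular injury markers was 21300 CPM in animal 16 and 1940 to 4240 CPM in the other kidneys. Of the surrounding lists, genes of mitochondrial content had a median log2 fold change of -0.03 (0 of 12 past the threshold), carnitine shuttle enzymes 0.04 (0 of 5), malate-aspartate shuttle enzymes -0.03 (0 of 4) and import factors -0.06 (0 of 13). Of the markers of other cell types none passed edgeR's test. Macrophage markers had a median of -0.45 (9 of 10 below 0), T cell markers -0.48 (8 of 8 below 0) and B and plasma cell markers -0.26 (4 of 5 below 0). Adipocyte markers had a median of 1.36 (5 of 5 above 0), erythroid markers 1.06 (6 of 6 above 0) and endothelial markers 0.21 (5 of 5 above 0), while podocyte markers stood at -0.19 (5 of 5 below 0). The part of these markers in the carriers' values was not tested.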

How the data were processed

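The members and gene lists were chosen with earlier results of these data known. Kidney RNA was sequenced on an Illumina NovaSeq X, as the labels' protocols state. Gene counts are the values that the authors deposited; the build, per the submitters' processing notes, was mm10, and no source used here names the aligner, the counter, the annotation or the use of strand. The entry for reads without a gene, 0.223% to 0.401% of the counts in the LOY table, was left out.

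Each table was tested whole. edgeR 4.0.16 (R 4.3.3) was used with TMM factors, its filterByExpr step (count of at least 10, total of at least 15) and the robust quasi-likelihood F test. Adjustment was by Benjamini-Hochberg over all genes tested, with a threshold of 0.05. The SE was obtained by dividing the absolute log2 fold change by the square root of its F value. CPM use TMM-scaled totals and are given as mean ± SD. Alternatives were DESeq2 1.42.0, limma's (3.58.1) voom with quality weights, other scalings and filters, leaving out kidneys, and animal number. Replicates are separate animals per the labels; between kidneys of a group, the median squared difference in counts over genes was at least 3.57 times that of counting noise. The script was tested on simulated data.

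Named members were the 5 smallest p in each direction, the 8 highest per kilobase and a set list of 13; others were added to describe a role, and a result that meets the rule is not reported here. The motif TGACGTCA was chosen after the values were seen. Lengths and coordinates are from GENCODE M21 (GRCm38), matched for 89.0% and 96.2% of tested genes. Promoters are from RefSeq; protein sequences were not used here.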

Additional observations from a re-analysis of the deposited data

Results flagged for a closer look

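In 7 of 92 pairs of a named gene and a group, 1 kidney stood apart from the rest of its group, and chance alone marks about 1 in 20 such pairs. In the LOY group, animal 8 held 1070 CPM of the dicarboxylate carrier Slc25a10, and the other LOY kidneys held 477 to 547 CPM. The same animal held 76.0 CPM of mitoferrin 2 (Slc25a28), beside 45.3 to 56.0 CPM in the others. Mitoferrin 1 (Slc25a37) measured 79.0 CPM in LOY animal 10 and 53.1 to 58.1 CPM in the other LOY kidneys. In the Control group, animal 3 held 109 CPM of the ATP-Mg/phosphate carrier Slc25a23, below the 141 to 150 CPM of the others.

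In the ABT-263 table, control-compound animal 6 held 359 CPM of Slc25a25, beside 46.8 to 84.3 CPM in the other control-compound kidneys. It also held 124 CPM of the citrate carrier Slc25a1, beside 97.9 to 101 CPM. ABT263 animal 16 held 119 CPM of the oxoglutarate carrier Slc25a11, below the 131 to 133 CPM of the other ABT263 kidneys. The causes were not tested.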

How the results depend on the processing

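The count of members past the threshold with LOY was 0, and became 1 at an adjusted p of 0.1 (Slc25a25), 1 with DESeq2 (Slc25a25, adjusted p = 0.0217) and 2 with voom (Slc25a23 and Slc25a24, adjusted p = 0.0396 each). Leaving out single kidneys gave 0 to 1, the 1 being Slc25a25 without LOY animal 5 (adjusted p = 0.0428) or LOY animal 18 (adjusted p = 0.0492). With ABT-263 it was 0 under every alternative run. Over all genes, 176 passed with LOY, beside 549 at an adjusted p of 0.1, 105 with totals alone, 866 with DESeq2, 1062 with voom, 1 with animal number as a term, 451 among the animals numbered above 10 and 29 without LOY animals 8 and 10. Leaving out single kidneys gave 0 (without Control animal 16 or 17) to 607 (without Control animal 3). With ABT-263, 44 passed with DESeq2, 11 with voom and 0 to 9 when single kidneys were left out, 9 being without control-compound animal 6. Among the named members, fold changes that exceeded their SE and changed sign were those of Slc25a27 (-0.13 among the animals numbered above 10) and, with ABT-263, Slc25a10 (0.0023 with voom). The causes were not tested.

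No paired analysis was possible because the groups compared within a table share no animal number. Numbers 8, 9, 10 and 18 occur in both tables, and the labels do not say whether they are the same animals. With 4 to 6 kidneys a group, and single kidneys that moved the counts this far, small differences of a carrier were not detectable.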

Other observations

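Some carriers stood at different levels in the LOY kidneys of the separate tables, which were made and scaled apart, so these differences were not tested and cannot be told apart from the processing. Slc25a30 averaged 36.2 ± 24.7 CPM in the 6 LOY kidneys and 159 ± 12.5 CPM in the 4 LOY kidneys given the control compound (SD). Slc25a48, whose role is not given here, averaged 9.29 ± 5.19 and 40.3 ± 11.7 CPM, and the pyrimidine nucleotide carrier Slc25a36 averaged 54.9 ± 20.1 and 157 ± 10.0 CPM. In the other direction, its paralog Slc25a33 averaged 19.2 ± 3.11 and 7.51 ± 1.64 CPM, and Slc25a10 averaged 607 ± 226 and 312 ± 43.1 CPM. The 6 Control kidneys of the LOY table averaged 59.6 ± 18.0 CPM of Slc25a30 and 81.0 ± 12.8 CPM of Slc25a36.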
